A study of Arabidopsis thaliana with 26 samples.

Results

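CCL and 3 genes known here by their loci, AT1G56300, AT4G16146 and AT2G21130, were described in Arabidopsis thaliana leaves across all 7 sample groups of the series. They were chosen from these same arrays because their transcripts rose strongly by 4 h, stood high at 12 h and were low again at whole days. The rule names the genes and sets no numerical threshold. Each gene had 1 probe set on the Affymetrix ATH1 array, and these 4 were taken out of 22746 probe sets. All 4 passed the filter on low values, which kept 13648.

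The plants were of accession Col-0, carried no transgene or mutation in their labels, and stayed under ambient CO2 and ambient light with a light period of 10 h. Every group shares these conditions. Developing leaves, at leaf insertions 19 to 21, were taken after 2, 4, 12, 24, 48 and 96 h, each time on 4 arrays. Mature leaves were taken after 24 h on 2 arrays. The labels give neither the clock time at which the hours began nor whether replicates came from separate plants, so p-values reflect only how far these samples varied, which may be technical.

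The circadian clock of plants makes many leaf transcripts rise and fall each day, and light, sugar and temperature add their own daily changes. Samples taken at 24, 48 and 96 h lie whole days apart and so share a time of day, whatever hour the count began. CCL, short for CCR-like, is known in Arabidopsis for an unstable transcript whose decay is itself under clock control. The annotation used here gives no product for the other loci, so they carry no role below.

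Arrays of developing leaves at 24 h and of mature leaves were less alike within their groups (mean r 0.967 and 0.969 across probe sets) than those of the other groups (0.978 to 0.981). Of 12 leaf marker genes 3 had a probe set that the annotation names, RCA, LHCB4.1 and PSAN. Their summed intensity was at least 5899 on every array. Of 16 markers of other organs and cell types 4 had such a probe set, EXPA7, PYK10, AT1G29140 and FAMA. Their summed intensity was at most 153 on any array. On the developing 24 h replicate 1 array the leaf markers summed to 14799, the highest of the developing arrays. The actin control probe sets compare the 3 prime with the 5 prime end of a transcript, a measure of RNA quality, and their log2 ratio was 2.66 ± 0.15 (SD, n = 4) at 2 h, 2.14 ± 0.49 at 24 h, 1.53 ± 0.50 at 96 h and 1.60 ± 0.56 (SD, n = 2) in mature leaves. For the GAPDH controls it was 0.38 ± 0.42 in developing leaves at 24 h and 0.45 ± 0.43 in mature leaves. For the ubiquitin controls it was 1.71 ± 0.11 and 1.28 ± 0.34. The part of RNA quality in the results below was not tested beyond a fit with the actin ratio as a covariate.

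CCL began the series at 449.6, 289, 237 and 241 on the 4 arrays at 2 h, in MAS5 intensity units, a linear brightness scale in which every array has been brought to the same trimmed mean. It stood at 865, 989.5, 915 and 1050.4 at 4 h. At 12 h it reached 1820.1, 1801, 1634 and 1782. These 3 groups did not overlap, and each later one was wholly above the one before. At 24 h CCL was at 119.5, 76.9, 67.5 and 98.7, at 48 h at 93.2, 81.2, 92.3 and 64.5, and at 96 h at 99.9, 99.1, 81.6 and 79.9. The 3 whole-day groups overlapped one another and lay below every array at 2 h. In mature leaves at 24 h CCL was at 1106 and 1011, beside the 4 h arrays of developing leaves rather than the 24 h ones.

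AT1G56300 followed another order, with its highest arrays at 4 h. It was at 75.6, 67.5, 43.5 and 40.9 at 2 h, at 385, 316, 308 and 355 at 4 h, and at 214, 213, 172 and 233 at 12 h. Every 12 h array was below every 4 h array and above every 2 h array. It then stood at 15.6, 17.0, 18.3 and 10.8 at 24 h, at 19.0, 10.7, 13.9 and 13.2 at 48 h, and at 15.0, 6.46, 13.4 and 11.1 at 96 h. These whole-day values are below the mean level that the filter asked for, so this gene passed through its high groups. The deposited table holds no detection calls, and whether these low values stood above background is not known. In mature leaves it was at 52.4 and 41.2, above all 4 developing arrays at 24 h and within the range of the 2 h arrays.

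AT4G16146 was at 49.8, 42.8, 36.5 and 36.4 at 2 h, at 159.9, 142, 133 and 178 at 4 h, and at 196, 205, 170.1 and 183 at 12 h. The 4 h and 12 h arrays overlapped, which set this gene apart from the other 3. It returned to 34.9, 31.1, 27.7 and 36.7 at 24 h, to 31.5, 28.1, 23.7 and 26.4 at 48 h, and to 19.5, 36.6, 31.9 and 40.9 at 96 h. The highest arrays at 24 h and 96 h overlapped the lowest ones at 2 h. Mature leaves gave 34.4 and 38.3, within the range at 96 h and overlapping the ranges at 2 h and 24 h.

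AT2G21130 was at 64.8, 57.1, 56.9 and 67.9 at 2 h, at 145, 164, 173 and 189.8 at 4 h, and at 303, 299, 259.9 and 307 at 12 h. Like CCL it was higher at 12 h than at 4 h on every array. The whole-day arrays gave 79.4, 54.8, 60.8 and 45.2 at 24 h, 55.1, 52.5, 51.8 and 41.2 at 48 h, and 36.8, 44.8, 62.8 and 57.9 at 96 h. Of these groups, the one at 48 h lay wholly below 2 h, and those at 24 h and 96 h overlapped it. Mature leaves gave 44.2 and 52.6, within the ranges at 48 h and 96 h.

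**Figure D1:**
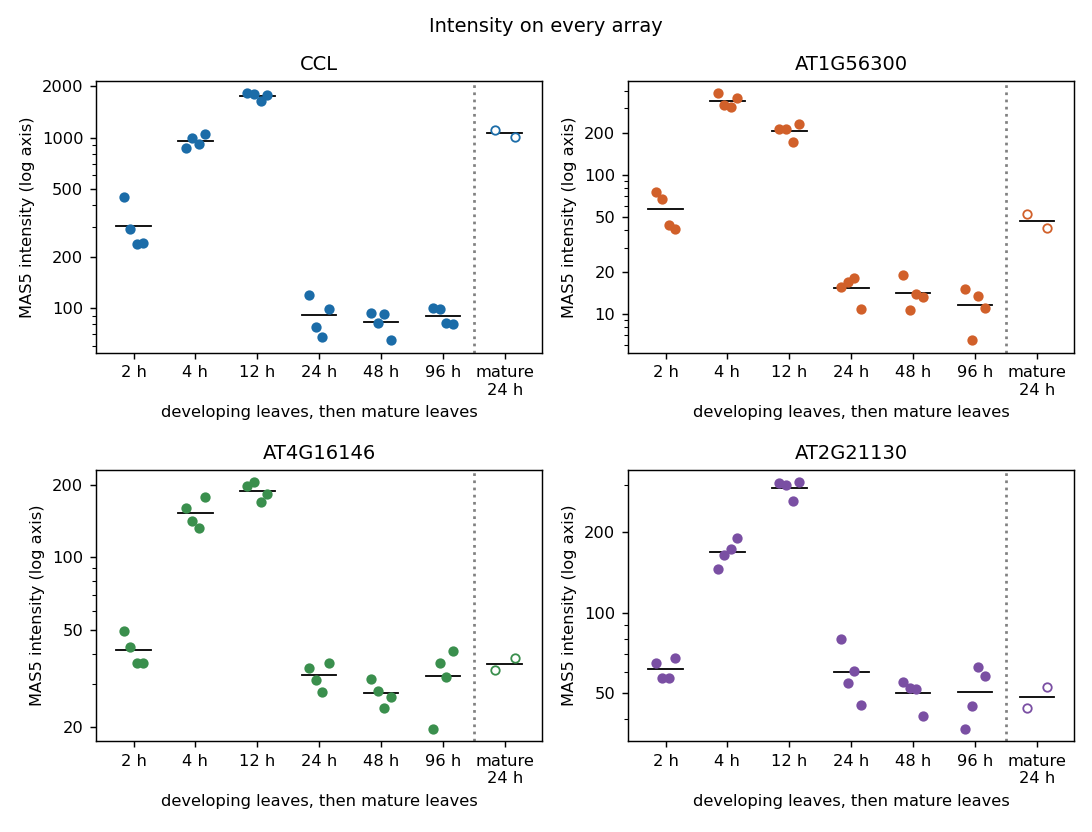
MAS5 intensity (log axis) of the 4 genes on each of the 26 arrays, by sample group; filled points are developing leaves, open points mature leaves, and bars are group means. The arrays at 4 h and 12 h lie above all other developing arrays for every gene, and the open points are high for CCL, raised for AT1G56300 and low for the other 2.

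The differences between times in developing leaves were what chose these genes, and they are given here without a test. They are log2 differences with the standard error (SE) of a fit over all arrays, on the scale of log2(intensity + 4.35), which understates the change of low values. From 2 h to 4 h AT1G56300 gained 2.53 ± 0.19, AT4G16146 1.78 ± 0.15, CCL 1.68 ± 0.16 and AT2G21130 1.38 ± 0.15. Among the 13648 probe sets tested these were the gains ranked 1, 7, 8 and 14, in that order. From 4 h to 12 h the genes parted, with CCL at 0.88 ± 0.16, AT2G21130 at 0.79 ± 0.15, AT4G16146 at 0.30 ± 0.15 and AT1G56300 at -0.70 ± 0.19. Between 12 h and 24 h CCL changed by -4.25 ± 0.16, which ranked 3 among all falls, and AT1G56300 by -3.43 ± 0.19, which ranked 10. AT4G16146 changed by -2.39 ± 0.15 and AT2G21130 by -2.23 ± 0.15 over the same step.

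The depth of the rise and fall set CCL apart from AT4G16146 and AT2G21130. The hours of the rise were not sampled again on a later day, so a daily repeat was not tested. The highest developing group stood 19.4-fold above the mean of the 3 whole-day groups for CCL, 5.56-fold for AT4G16146 and 5.19-fold for AT2G21130. For AT1G56300 the step was 4.28 on the log2 scale, but its whole-day values are low enough for the pseudocount to set it. Its change from 12 h to 24 h, for example, was -2.62 with a pseudocount of 50% of the median and -3.73 with 1%. The span between the highest and the lowest developing group ranked 24 for CCL, 21 for AT1G56300, 134 for AT4G16146 and 170 for AT2G21130 among all probe sets tested, whose median span was 0.51 on the log2 scale. The genes also parted at 2 h. For CCL and AT1G56300 all 2 h arrays lay above all arrays at 24, 48 and 96 h, as they did in 7.16% of the probe sets tested, and for the other 2 genes they did not. All 4 genes had every array at 4 h and 12 h above every other developing array, a pattern that the choice of genes fixes and that 191 probe sets (1.4%) showed.

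**Figure D2:**
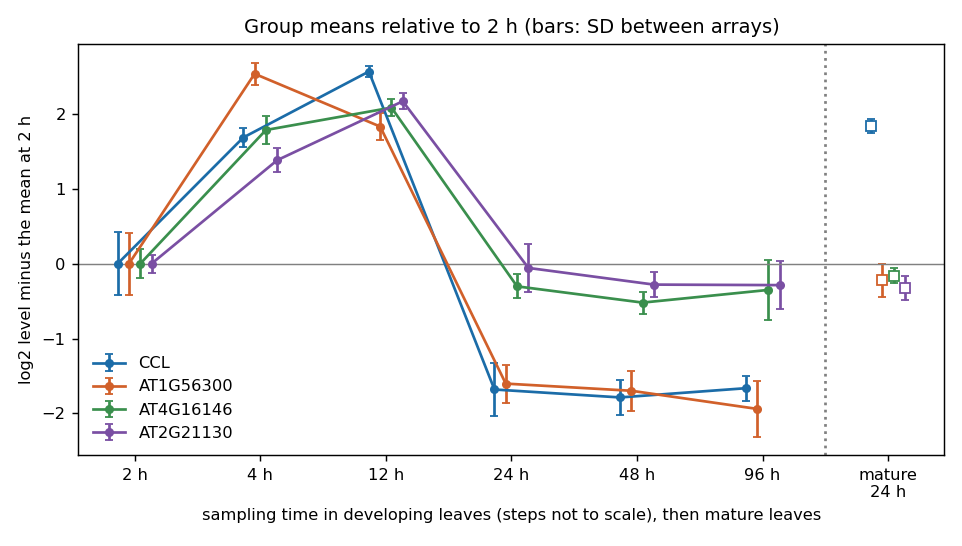
Mean log2 level of each gene in each group minus its own mean in developing leaves at 2 h (bars are the SD between arrays; time steps are not to scale); squares are mature leaves. AT1G56300 is highest at 4 h and the other 3 at 12 h, CCL and AT1G56300 drop well below their 2 h level at whole days, and the CCL square is the only one far above 0.

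The comparison of mature with developing leaves at 24 h was not itself used to choose the genes, but the low level of the developing group was, and the p-values below make no allowance for that choice. CCL was 11.4-fold higher in mature leaves, a log2 difference of 3.51 ± 0.20 with an adjusted p of 3.63e-14 by limma with Benjamini-Hochberg adjustment over all 13648 probe sets. AT1G56300 was higher by 1.38 ± 0.23 on the log2 scale, with an adjusted p of 9.75e-06. Its developing values lie below the filter level and may be background, so the size of this difference is uncertain: it was 0.88 with a pseudocount of 50% of the median and 1.59 with 1%. Both mature arrays were above all 4 developing arrays for these 2 genes, as for 24.9% of all probe sets tested. AT4G16146 differed by 0.14 ± 0.18 (95% interval -0.24 to 0.52, adjusted p = 0.517) and AT2G21130 by -0.27 ± 0.18 (-0.63 to 0.10, adjusted p = 0.199), and neither passed the test. Both intervals lie below the difference measured for CCL.

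So 2 of the 4 genes passed, both higher, where 61.7% of all probe sets tested passed, 24.1% higher and 37.6% lower. That share of the genes is near the background share, and nothing is read from it. By size, the CCL difference ranked 53 among all rises, and 26 among those of the 7445 probe sets that name 1 gene. AT1G56300 ranked 799. The median of all probe sets tested was -0.15. With the actin ratio as a covariate AT2G21130 passed as well, at -0.45 with an adjusted p of 0.0179. In bulk leaf RNA, fewer cells of a type and less RNA per cell cannot be told apart, and with 2 mature arrays the spread came mostly from the developing groups.

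Mature leaves therefore held different places in each gene's own range over the developing times. Measured from the mean of the whole-day groups to the highest developing group on the log2 scale, the mature level lay at 82.9% of the way for CCL, 35.6% for AT1G56300, 9.37% for AT4G16146 and -4.88% for AT2G21130. In the order of the 7 groups, mature leaves came second for CCL, and their arrays overlapped those of the next group, developing leaves at 4 h. For AT1G56300 and AT4G16146 they took place 4, overlapping the 2 h group above them. For AT2G21130 they came last, and the 5 lowest groups each overlapped the next.

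**Figure D3:**
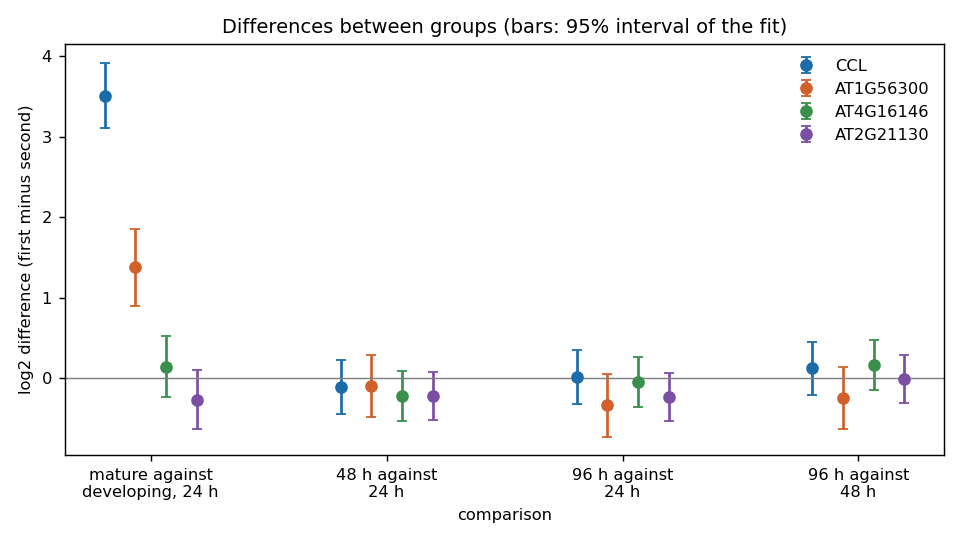
Log2 differences of the 4 genes between mature and developing leaves at 24 h and among the 3 whole-day times, whose low levels were part of the choice of genes; bars are 95% intervals of the limma fit. CCL at 3.51 and AT1G56300 at 1.38 lie clear of 0 in the first comparison, and the intervals among the whole-day times cross 0.

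The ratio of 1 gene to another on the same array reduces the effect of any scaling of that array. The levels include the pseudocount, so the scaling does not cancel fully, least of all for low values. The whole-day values of AT1G56300 are low, so the sizes of all ratios with this gene depend on the pseudocount. How far they do was not tested. Relative to its mean in developing leaves at 24 h, the log2 ratio of CCL to AT4G16146 was 3.24 and 3.51 on the 2 mature arrays, and its range over all developing arrays was -0.44 to 1.92. The ratio of CCL to AT2G21130 was 3.60 and 3.96, against -0.41 to 2.16, and that of CCL to AT1G56300 was 2.04 and 2.23, against -1.09 to 1.01. These ratios moved widely over the developing times, and on both mature arrays they lay above the whole of that range. The ratio of AT1G56300 to AT4G16146, at 1.01 and 1.46, stayed within its developing range of -1.01 to 2.16.

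Between mature and developing leaves at 24 h the mean ratio changed by 2.14 for CCL to AT1G56300, 3.37 for CCL to AT4G16146 and 3.78 for CCL to AT2G21130. It changed by 1.23 for AT1G56300 to AT4G16146, 1.65 for AT1G56300 to AT2G21130 and 0.41 for AT4G16146 to AT2G21130. In a 2-sided exact permutation test of each of the 6 ratios, the first 5 gave p = 0.0667, the smallest that 2 arrays against 4 allow (adjusted p = 0.08 over the 6), and the last gave p = 0.267 (adjusted p = 0.267). This test, with so few arrays, cannot go under 0.05, and nothing is read from its p-values. The 6 ratios come from the same 4 genes and are not separate results. They also use the low developing 24 h levels, which were part of the choice of genes.

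**Figure D4:**
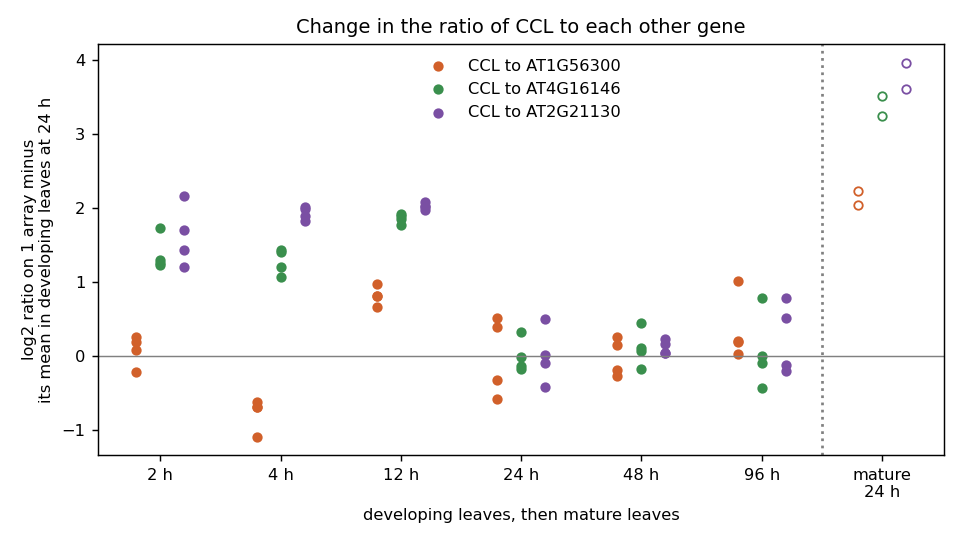
Log2 ratio of CCL to each of the other 3 genes on every array, set to 0 at its mean in developing leaves at 24 h; open points are mature leaves. The open points, from 2.04 to 3.96, lie above every developing array of the same ratio.

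The genes were chosen for low levels at all 3 whole-day times, so the differences among these times are given as a description. From 24 h to 48 h they ran from -0.22 to -0.095 on the log2 scale, from 24 h to 96 h from -0.34 to 0.017, and from 48 h to 96 h from -0.24 to 0.17. The one farthest from 0 was that of AT1G56300 at 96 h against 24 h, with a 95% interval of -0.72 to 0.05, and for CCL the interval of that comparison was -0.32 to 0.35. By limma 0 of the 4 genes passed in these 3 comparisons, and 0 of the 12 values had an unadjusted p under 0.05, where 0.315%, 17.2% and 3.44% of all probe sets passed. Nothing is read from these counts.

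Some arrays were high or low for several of the genes at once. The developing 12 h replicate 3 array was the lowest of its group for all 4 genes, and the developing 48 h replicate 1 array the highest of its group for all 4. The developing 2 h replicate 1 array was the highest of its group for 3 of them, with CCL at 449.6 where the other 3 arrays were at 237 to 289. Between arrays of 1 group CCL varied least at 12 h, with a coefficient of variation of 4.82%, and most at 2 h, with 32.9%.

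Over the 24 developing arrays the genes' log2 levels correlated with each other at Pearson r of 0.877 (AT1G56300 and AT2G21130) to 0.963 (AT4G16146 and AT2G21130). These values describe genes picked for a common course over 6 times, and the arrays share those times. For CCL the most alike probe sets naming 1 gene were DPE1, an enzyme that acts on the malto-oligosaccharides released from starch (r 0.983), AT3G62550 (0.975), WLIM1, a LIM-domain protein that binds actin filaments (0.973), AT4G14270 (0.972) and AT5G39410 (0.969). For AT1G56300 they were AT4G14270 (0.976), WLIM2a, a relative of WLIM1 (0.964), and AT4G30660 (0.962). For AT4G16146 they were AT3G62550 (0.969), AT5G39410 (0.967) and AT4G32340 (0.964). For AT2G21130 they were AT4G32340 (0.978), AT5G24490 (0.970) and again AT5G39410 (0.968).

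A like course over the developing times went with unlike levels in mature leaves. The 9 genes were picked by their course over arrays that include developing leaves at 24 h. The p-values below make no allowance for that choice. Of these 9 genes AT4G32340 was higher in mature than in developing leaves at 24 h by 3.53 ± 0.22 (adjusted p = 1.91e-13 by limma), AT3G62550 by 2.88 ± 0.23 (adjusted p = 1.91e-11) and AT4G14270 by 0.71 ± 0.20 (adjusted p = 0.00280). Without the mature 24 h replicate 1 array AT4G14270 did not pass, at 0.37 with an adjusted p of 0.193. DPE1, the gene most like CCL, was lower by 0.36 ± 0.13 (adjusted p = 0.0175). That call was lost with quantile normalization (-0.29, adjusted p = 0.0504), with 2 further settings, and without the developing 24 h replicate 1 (adjusted p = 0.0517) or the mature 24 h replicate 2 array (adjusted p = 0.112). WLIM2a was lower by 0.55 ± 0.13 (adjusted p = 4.61e-04) and AT5G39410 by 0.94 ± 0.15 (adjusted p = 2.90e-06). WLIM1 (0.12 ± 0.12), AT4G30660 (-0.14 ± 0.18) and AT5G24490 (0.0086 ± 0.14) did not pass.

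The level of AT3G62550 went from 5.35 ± 0.27 (log2, SD, n = 4) at 2 h to 7.79 ± 0.23 at 12 h and 4.61 ± 0.16 at 24 h, and was 7.49 ± 0.21 (n = 2) in mature leaves. AT4G32340 went from 4.95 ± 0.34 through 8.09 ± 0.16 to 4.48 ± 0.40, and was 8.01 ± 0.05 in mature leaves. Both thus shared with CCL a mature level far above their own 24 h level in developing leaves. For AT3G62550 and AT4G32340 the developing 24 h levels lie below the mean level of 4.99 that the filter asked for. They may be background, so the size of these differences is uncertain. Among the 50 probe sets most like CCL over the developing arrays, 21 were higher and 17 lower in mature leaves, with a median log2 difference of 0.21, beside 24.1% higher and 37.6% lower and a median of -0.15 over all probe sets tested, and 1 exceeded CCL. For AT1G56300 the counts were 22 higher and 20 lower, for AT4G16146 18 and 17, and for AT2G21130 17 and 16. These sets of 50 share probe sets, so their counts are not separate results.

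**Figure D5:**
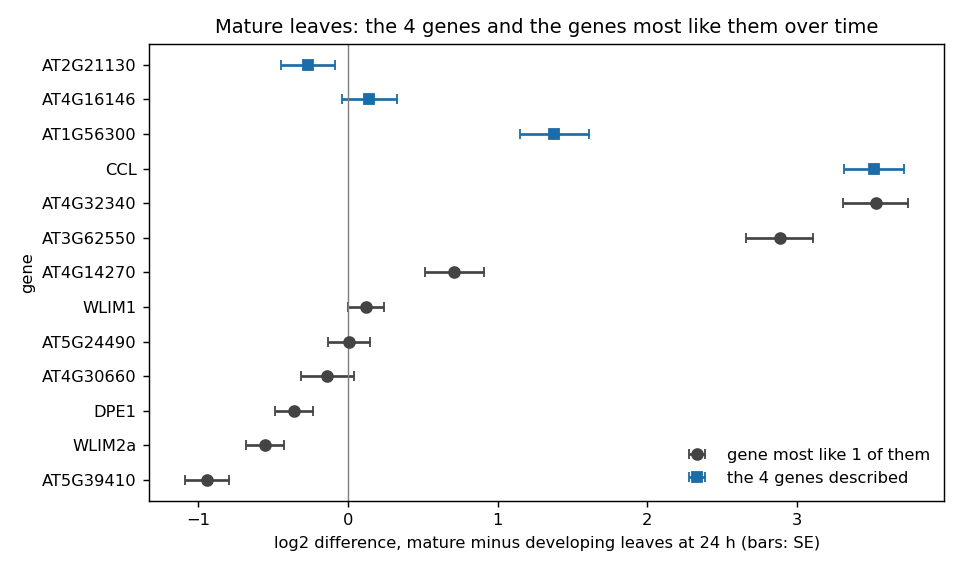
Log2 difference between mature and developing leaves at 24 h (bars are SE) for the 4 genes (squares) and for the 9 genes whose course over the developing arrays was most like theirs (circles). AT4G32340 (3.53) and AT3G62550 (2.88) lie near CCL (3.51), whereas DPE1 (-0.36), WLIM2a (-0.55) and AT5G39410 (-0.94) lie below 0.

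Of 25 clock genes listed, 2 had a probe set that the annotation names. GI, a clock component of the evening phase that also acts in flowering, ran at 51.4 to 60.1 at 2 h, at 152 to 180.0 at 4 h and at 3.61 to 12.1 at 12 h. It rose with the 4 genes from 2 h to 4 h by 1.52 ± 0.16, which passed beside 2.34% of probe sets, and from 2 h to 12 h it fell by 2.20 on the log2 scale. By 24 h it was back at 40.2 to 60.9, and in mature leaves it was at 63.0 and 63.8, with a difference from developing leaves at 24 h that did not pass (0.37, 2 arrays against 4). AT5G52660 passed in none of the time comparisons and was 0.40 higher in mature leaves (adjusted p = 0.0377), which without the mature 24 h replicate 2 array was 0.024 (adjusted p = 0.924). That call was also lost under 5 of 9 other settings and without the developing 24 h replicate 3 or replicate 4 array.

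Of 20 genes listed as clock outputs or as regulators of daily phase, 2 had a probe set that the annotation names, and both fell below the filter. COR27, a cold-regulated gene with a daily rhythm, was at 153 to 252 at 12 h and at most 8.69 on all other arrays, mature ones included. AT4G33980 was at 34.8 to 43.5 at 12 h and at most 8.74 elsewhere. Neither gene rose at 4 h as CCL did, or came near its own 12 h level in mature leaves. In mature leaves COR27 was at 6.94 and 8.69, above the 1.24 to 2.29 of developing leaves at 24 h. AT4G33980 was at 1.37 and 8.74, above 0.59 to 1.27. All these values are low and may be background. None of the 11 genes listed for unstable or sugar-repressed transcripts had a probe set that the annotation names.

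Lists of protein-folding genes and of a few further loci were read beside the 4 genes. Of 24 cyclophilins, the prolyl isomerases, 16 had a probe set that the annotation names. In mature leaves 13 of them were lower and 1 higher than in developing leaves at 24 h, where 37.6% of all probe sets were lower and 24.1% higher, and their median was -0.74 beside -0.15. With quantile normalization 11 were lower, and the 1 that had been higher, AT5G35100, named here after its values were seen, did not pass (0.35, adjusted p = 0.0518). Those with the largest changes were AT1G01940 (-1.12 ± 0.15, adjusted p = 3.99e-07), SQN (-0.93 ± 0.23, adjusted p = 0.00110), AT3G15520 (-0.89 ± 0.11) and AT3G63400 (-0.88 ± 0.10). From 2 h to 4 h 0 of the 16 passed by limma, with 1 at an unadjusted p under 0.05, and at 12 h against 2 h 4 were higher and 2 lower, beside 39.2% of all probe sets called.

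Of 18 J-domain proteins, the partners of HSP70 chaperones, 4 had a probe set that the annotation names. At 12 h against 2 h, where 18.6% of all probe sets were lower, 3 of them were lower, ATERDJ2B (-0.74 ± 0.13), ATJ1 (-0.71 ± 0.14) and ATERDJ3B (-0.71 ± 0.10). In mature leaves, where 61.7% of all probe sets passed, ATERDJ3B (0.80 ± 0.13) and ATERDJ2B (0.43 ± 0.16) were higher and ATERDJ2A (-0.51 ± 0.12) lower. The ATERDJ2B call was lost under 2 of 10 other settings. It was also lost without the mature 24 h replicate 1 array (0.22) or the developing 24 h replicate 4 array (0.38, adjusted p = 0.0582 by limma). A short list of 2 further loci gave AT1G69510 (0.84 ± 0.16) and AT5G64130 (0.47 ± 0.11) higher at 12 h than at 2 h. In mature leaves AT5G64130 was lower (-0.75 ± 0.13) and AT1G69510 higher (0.56 ± 0.19). The AT1G69510 call was lost under 1 of 10 other settings, and without either mature array or the developing 24 h replicate 4 array.

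Markers of leaf tissue and of leaf age were read beside the CCL difference in mature leaves. The 3 leaf genes were higher in mature leaves, RCA by 0.47 ± 0.18, LHCB4.1 by 0.46 ± 0.15 and PSAN by 0.33 ± 0.14, and with quantile normalization they did not pass, at 0.070 (adjusted p = 0.307), 0.076 (adjusted p = 0.361) and 0.16 (adjusted p = 0.0520). Each call was also lost without the mature 24 h replicate 2 array (adjusted p of 0.398 to 0.656), and those of RCA and PSAN without the developing 24 h replicate 2 or replicate 3 array. Their summed intensity was 12066 to 17812 in mature leaves and 8432 to 14799 in developing leaves at 24 h. Of 10 listed genes of leaf ageing 2 had a probe set that the annotation names. These were SAG29, a sugar transporter, and WRKY53, a transcription factor, both below the filter. Their summed intensity was 227 to 245 in mature leaves, 25.5 to 39.1 in developing leaves at 24 h and 49.9 to 58.8 at 96 h. The summed markers of other organs were at 94.5 to 96.3 in mature leaves and at 102 to 142 in developing leaves at 24 h. Their part in the differences of CCL and AT1G56300 was not tested.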

How the data were processed

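Per the submitters' processing notes and the file's values, the deposited table holds MAS5 intensity values, made by the authors with a version, background correction and scaling target not given in the sources used here. Trimmed means (2% off each end) were 100.0 on all 26 arrays, and array medians ran from 40.7 to 47.0. The number of arrays limits the precision.

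Values were taken as log2(intensity + 4.35), the pseudocount being 10% of the median. Of 22810 probe sets, 64 controls were left out, and those with a mean log2 value under the 40th percentile were not tested. All 7 groups entered 1 fit in limma 3.58.1 (R 4.3.3) with a variance trend, with Benjamini-Hochberg adjustment over 13648 probe sets and a threshold of 0.05. The fit was also run on simulated data with independent noise of equal spread in every group. That setting does not copy the uneven spread of these groups, and nothing is read from it. Gene names are those of the platform annotation, which names no gene for 5944 of the 13648 probe sets tested. A listed gene was used only where the annotation gives a probe set to it alone. Whether unnamed probe sets measure other listed genes was not checked.

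The named genes are the 4, the probe sets most like each by Pearson r (5 for CCL, 3 for the others), and up to 4 list members that passed, by size. The members, lists and tests were chosen with earlier results of these data known. The 50 nearest probe sets and the tests of ratios between genes were chosen after seeing the data.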

Additional observations from a re-analysis of the deposited data

Results flagged for a closer look

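AT2G21130 had 1 array far from the others of its group: the developing 12 h replicate 3 array, at a log2 level of 8.05 (intensity 259.9), where the other 3 arrays had intensities of 299 to 307. The same array was the lowest of its group for all 4 genes. Of the 24 groups of 4 arrays checked, 6 for each of the 4 genes, 1 stood out in this way, and chance flags about 5% of groups.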

How the results depend on the processing

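The rises of CCL and AT1G56300 in mature leaves kept their direction and passed under every alternative in which they were tested. They ran from 3.29 to 3.66 for CCL and from 0.88 to 1.59 for AT1G56300. Without any 1 array they ran from 3.39 to 3.65 and from 1.22 to 1.54. All these runs share the low developing 24 h level that was part of the choice of genes. Without 1 mature array the other is assumed to vary like the remaining groups. With the filter at the 60th percentile AT1G56300 and AT4G16146 were not tested. With the actin ratio as a covariate AT2G21130 passed in mature leaves (-0.45) and at 96 h against 24 h (-0.43). The untested difference of AT2G21130 between 24 h and 2 h, -0.057, ran from -0.19 to 0.060 without 1 array, and turned its sign without the developing 24 h replicate 4 array; the cause was not tested.

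At 48 h against 24 h 43 probe sets passed, and 28 did with no filter, 21 without the variance trend, 171 with array weights, 95 with the actin covariate, 1 with the arrays of these groups alone and 0 to 104 without 1 array. The count was 0 by limma without the developing 24 h replicate 1 or the 48 h replicate 3 array, where 1911 and 1551 probe sets had an unadjusted p under 0.05. At 96 h against 48 h 470 passed, 1097 with array weights and 219 to 430 without 1 array. At 96 h against 24 h 2354 passed, 1378 with the arrays of these groups alone and 1571 to 2315 without 1 array, and in mature leaves 8423 passed, and 7296 to 8505 without 1 array. With the replicate block the 4 counts were 64, 572, 2570 and 8313; the deviations of same-numbered arrays correlated at -0.11 to 0.29 between 24 h and 48 h, -0.15 to 0.083 between 48 h and 96 h, -0.099 to 0.053 between 24 h and 96 h, and -0.29 and -0.18 between mature and developing leaves. As they were not all above 0.1 in any comparison, the numbers were not taken as pairs. Quantile normalization moved the median of all probe sets by at most 0.044. Of 27 calls of genes named beside the 4, 18 held under every alternative, applied to them after seeing the data.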
